A study of Homo sapiens with 6 samples.

Results

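The 10 genes described here are PER1, PER2, PER3, CRY1, CRY2, CLOCK, NR1D1, NR1D2, DBP and TEF. They were chosen by name, as the rows of the deposited table with these gene names, and were 10 of 60675 genes. All 10 had enough counts to be tested, among 16905 genes in all. The choice was made with results of the only comparison in the series already known, so the differences of these 10 genes are given as a description, with no p-value. The cells were HT1080, an established human fibrosarcoma line labelled as wild type. One group received the compound SW-113 and the other SW-138, each at 1 µM for 48 h. The series was set up to evaluate how selective inhibitors of KDAC6 (HDAC6) are. Compounds were added to partly confluent cells in MEM with fetal bovine serum, and total RNA from frozen pellets was depleted of ribosomal RNA. Each compound has 3 libraries, a vehicle group is not among the labels, and neither a synchronisation step nor a second time point is named. Differences are given as SW-138 minus SW-113, so a gene called higher is higher with SW-138, and which of the compounds moved it cannot be told apart.

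The circadian clock is a feedback loop of transcription that most cells carry. CLOCK, or its paralog NPAS2, pairs with BMAL1 (ARNTL in the table) and switches on genes through E-box elements, and the PER and CRY proteins made from those genes return to the nucleus and block the pair. A second loop is closed by the nuclear receptors NR1D1 and NR1D2 (REV-ERB alpha and beta), which repress ARNTL and recruit the corepressor NCOR1 with the deacetylase HDAC3. DBP and TEF are PAR-bZIP factors that carry the rhythm to output genes through D-box elements. In cultured cells that have not been synchronised, single cells keep their own phase, and bulk RNA reads an average over phases.

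Library totals ran from 32771670 to 50871623 estimated counts. One library, SW-138 replicate 2, lay away from the rest on principal component 1 of log2 expression, with a score of 39.1 against -24.1 to 5.88 in the other 5. That component held 32.2% of the variance. Of 10 markers of mesenchymal cells, 9 were above 10 CPM in every library, and S100A4 was the lowest. CPM are counts scaled to 1e6 per library, by plain totals for the cell type markers. Epithelial markers summed to 2.28 to 3.24 CPM with SW-113 and 2.84 to 3.63 CPM with SW-138, mostly CLDN4, and KRT5 and KRT14 had no counts. The 5 blood and the 4 endothelial markers were each below 1 CPM in every library. In bulk RNA, fewer cells expressing a gene and less RNA of it per cell cannot be told apart.

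The DNA elements that the clock proteins read were looked for in RefSeq promoter windows (GRCh38.p14), which hold 250 bases before a gene's start and 50 bases from the start on. All 10 genes matched, with 15 windows among them, since 5 genes have more than one start. The search covered both strands for the E-box CACGTG, the D-box forms TTATGTAA and TTACGTAA, and AGGTCA, the core of the element shared by ROR and NR1D proteins. The E-box was in windows of 3 of the 10 genes, PER1, NR1D2 and TEF, or 4 of the 15 windows, and in 7.26% of all 35116 windows or 8.77% of 27305 genes. TTATGTAA was in windows of PER3 and NR1D2, and in 0.886% of all windows or 1.13% of genes. TTACGTAA was in the PER2 window, and in 0.125% of all windows or 0.146% of genes. AGGTCA was in windows of PER1 and CRY2, and in 13.8% of all windows or 16.5% of genes. CRY1, CLOCK, NR1D1 and DBP held none of these letters in their windows. A match is a description of letters, and none says nothing of elements elsewhere in the gene. The stretches below show where the elements lie in the genes whose windows hold an E-box or a D-box, 5′ to 3′ on the gene's own strand, with the matched letters in capitals.
PER1: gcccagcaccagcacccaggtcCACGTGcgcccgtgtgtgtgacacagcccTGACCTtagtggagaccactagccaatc
PER2: cgcggcgcggccccgctgcggcTTACGTAA
PER3: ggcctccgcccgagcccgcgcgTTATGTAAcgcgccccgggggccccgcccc
NR1D2: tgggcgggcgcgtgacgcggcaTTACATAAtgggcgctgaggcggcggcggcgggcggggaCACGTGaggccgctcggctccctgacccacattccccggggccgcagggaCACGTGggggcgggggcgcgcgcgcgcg
TEF: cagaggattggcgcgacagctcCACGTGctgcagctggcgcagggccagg

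The PER1 stretch is chr17:8152521-8152599 on the minus strand, inside the annotated gene but in no annotated exon. Its E-box starts at position -173, counted from the base before the start as -1. AGGTCA lies on the reverse strand at -144, read above as its reverse complement. The PER2 stretch is chr2:238288606-238288635 on the minus strand, and its D-box runs from -3 across the start to position 5. The PER3 stretch is chr1:7784092-7784143 on the plus strand, upstream of the annotated gene, with the D-box at -177. The NR1D2 stretch is chr3:23945905-23946043 on the plus strand and belongs to the downstream of 2 starts, inside the gene and outside its exons. It holds 2 E-boxes, at -155 and -105, and a D-box on the reverse strand at -194. The TEF stretch is chr22:41367238-41367287 on the plus strand, upstream of the annotated gene, with the E-box at -195. It belongs to the upstream of 2 starts, and the window of the other start, not shown, holds an E-box at -193.

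Among the 10 clock genes, 6 had every SW-138 library above every SW-113 library: PER1, PER2, PER3, CRY1, NR1D1 and NR1D2. DBP had every SW-138 library below every SW-113 library, and CRY2, CLOCK and TEF overlapped. Over all tested genes, 27.9% did not overlap, 12.4% with SW-138 higher and 15.4% with SW-138 lower. The differences were small, from 1.06-fold in CRY2 to 1.22-fold in PER1. The median log2 fold change of the 10 genes was 0.17, beside 0.007 over all tested genes. Past an adjusted p of 0.05 over all genes (edgeR's quasi-likelihood test, Benjamini-Hochberg) lay 2 of the 10, PER1 and NR1D1, both higher, where 6.82% of all tested genes were called, 2.76% higher and 4.06% lower. Since the genes were proposed with this comparison in view, nothing is read from these counts. Neither call was stable to leaving out a library. PER1 kept its call only in the fit without SW-138 replicate 2, and NR1D1 in none of the 6 fits that left out a library. Log2 fold changes in those fits ran from 0.24 to 0.32 in PER1 and from 0.24 to 0.29 in NR1D1. Of the 1153 calls over all genes, those fits kept from 298 (without SW-113 replicate 3) to 1044 (without SW-138 replicate 2).

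**Figure D1:**
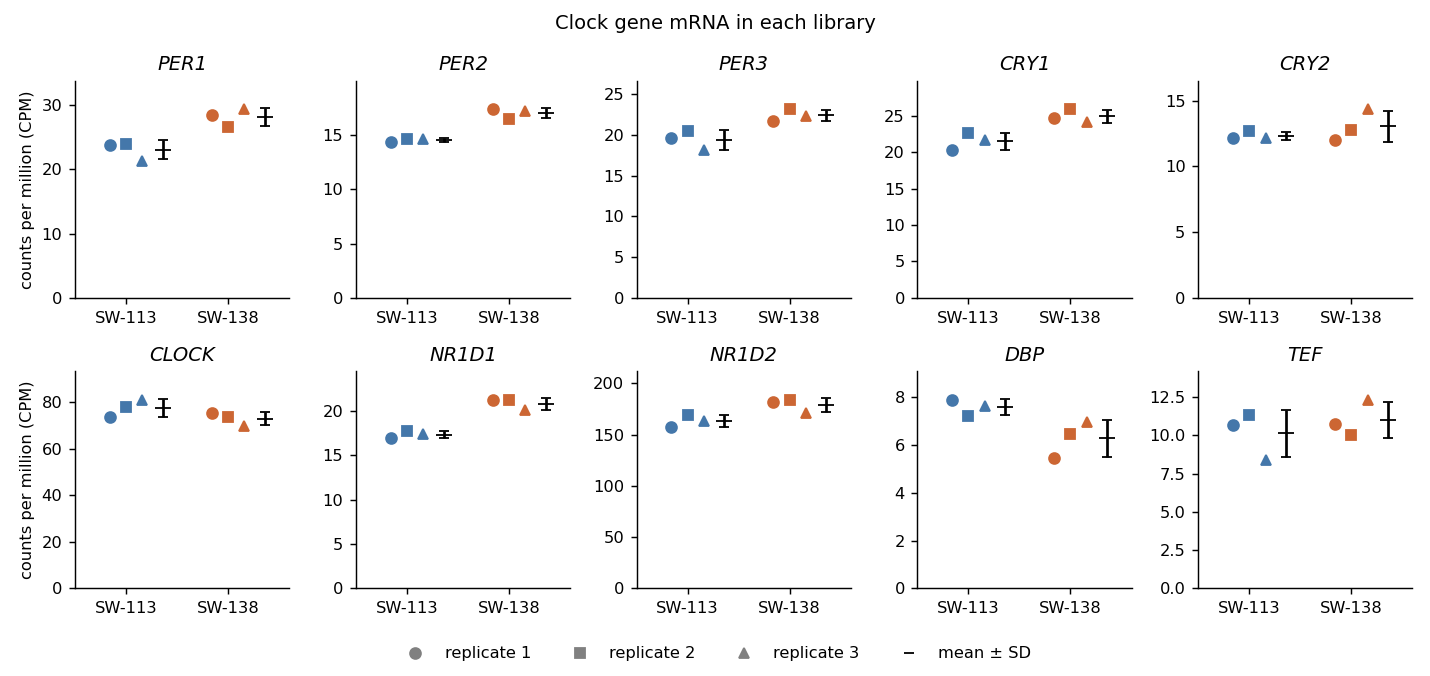
Each panel shows 1 clock gene, with expression in CPM from 0 on the vertical axis, the 3 libraries of each compound as points (circle, square and triangle for replicates 1, 2 and 3) and the mean ± SD beside them. PER1, PER2, PER3, CRY1, NR1D1 and NR1D2 have all SW-138 points above the SW-113 points, DBP has them below, and the points of CRY2, CLOCK and TEF overlap.

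PER1, PER2 and PER3 encode the period proteins, the partners of CRY in the repressor complex. PER1 (ENSG00000179094, GRCh38 chromosome 17, 8140472 to 8156506) was at 23.8, 24.0 and 21.4 CPM in SW-113 replicates 1, 2 and 3 and at 28.5, 26.6 and 29.4 CPM in the SW-138 replicates. The groups did not overlap, and the nearest libraries were SW-113 replicate 2 and SW-138 replicate 2. Means were 23.1 ± 1.46 and 28.1 ± 1.41 CPM (SD, n = 3), a log2 fold change of 0.29 ± 0.07 (SE) with a 95% interval of 0.13 to 0.44.

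PER2 (ENSG00000132326, chromosome 2, 238244038 to 238290102) is the period gene whose product, in mice, is needed most for rhythm. It was at 14.3, 14.6 and 14.6 CPM with SW-113 and at 17.3, 16.5 and 17.2 CPM with SW-138. The SW-113 libraries lay within a narrow band and all 3 SW-138 libraries above it. Its log2 fold change was 0.23 ± 0.07 (SE), with an interval of 0.08 to 0.37.

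PER3 (ENSG00000049246, chromosome 1, 7784320 to 7845177) was at 19.6, 20.5 and 18.1 CPM with SW-113 and at 21.7, 23.1 and 22.3 CPM with SW-138. All SW-138 libraries were above all SW-113 libraries, with replicate 3 the lowest of SW-113. On the log2 scale the fold change was 0.21 ± 0.07 (SE), with an interval of 0.05 to 0.36. Across the 3 period genes the fold ran from 1.154 in PER3 to 1.22 in PER1, and their intervals overlapped widely.

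CRY1 and CRY2 encode the cryptochromes, which bind the CLOCK and BMAL1 pair directly. CRY1 (ENSG00000008405, chromosome 12, 106991364 to 107093829) was at 20.3, 22.6 and 21.7 CPM with SW-113 and at 24.6, 25.9 and 24.2 CPM with SW-138, with no overlap. This is a log2 fold change of 0.21 ± 0.07 (SE), with an interval of 0.06 to 0.36. CRY2 (ENSG00000121671, chromosome 11, 45847118 to 45883248) was at 12.2, 12.7 and 12.1 CPM with SW-113 and at 12.0, 12.8 and 14.3 CPM with SW-138. SW-138 replicate 3 stood above the rest, and the other 5 libraries mixed. The log2 fold change was 0.08 ± 0.08 (SE), and its interval of -0.11 to 0.27 includes the values of PER2 and PER3 as well as 0, but not that of PER1.

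CLOCK, the DNA-binding partner of BMAL1 (ENSG00000134852, chromosome 4, 55427903 to 55547138) was at 73.6, 77.8 and 81.0 CPM with SW-113 and at 75.2, 73.5 and 69.9 CPM with SW-138. The groups overlapped through SW-113 replicate 1. On the log2 scale CLOCK was at -0.09 ± 0.05 (SE), with an interval of -0.21 to 0.03.

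NR1D1 and NR1D2 encode heme-binding nuclear receptors without the usual activation helix, which act as repressors. NR1D1 (ENSG00000126368, chromosome 17, 40092787 to 40100725) was at 16.9, 17.8 and 17.4 CPM with SW-113 and at 21.2, 21.3 and 20.1 CPM with SW-138. The gap between the groups was larger than the range within either of them. Means were 17.4 ± 0.417 and 20.8 ± 0.675 CPM (SD, n = 3), a log2 fold change of 0.26 ± 0.06 (SE) with an interval of 0.12 to 0.41. NR1D2 (ENSG00000174738, chromosome 3, 23945260 to 23980618) was the most counted of the 10, with 6068 to 8371 counts in a library. It was at 157.7, 168.8 and 162.9 CPM with SW-113 and at 181.7, 184.0 and 170.7 CPM with SW-138. The groups were apart, though SW-138 replicate 3 came close to SW-113 replicate 2. NR1D2 had a log2 fold change of 0.13 ± 0.05 (SE), with an interval of 0.02 to 0.24.

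DBP and TEF activate output genes through the D-box. DBP (ENSG00000105516, chromosome 19, 48630030 to 48637438) was at 7.90, 7.24 and 7.64 CPM with SW-113 and at 5.44, 6.45 and 6.98 CPM with SW-138. It was the least counted of the 10, with 218 to 359 counts in a library, and every SW-138 library lay below every SW-113 library. The log2 fold change was -0.27 ± 0.11 (SE), with an interval of -0.52 to -0.02. DBP, a gene that in many tissues peaks with the E-box genes PER and NR1D, thus stood on the other side of 0 from PER1 and NR1D1 here. TEF (ENSG00000167074, chromosome 22, 41367333 to 41399326) was at 10.7, 11.3 and 8.41 CPM with SW-113 and at 10.7, 10.0 and 12.3 CPM with SW-138. The groups overlapped, and SW-113 replicate 3 and SW-138 replicate 3 were the lowest and the highest library. The log2 fold change of 0.12 ± 0.12 (SE) had the widest interval of the 10 genes, -0.16 to 0.39, and was 0.0015 without SW-113 replicate 3.

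**Figure D2:**
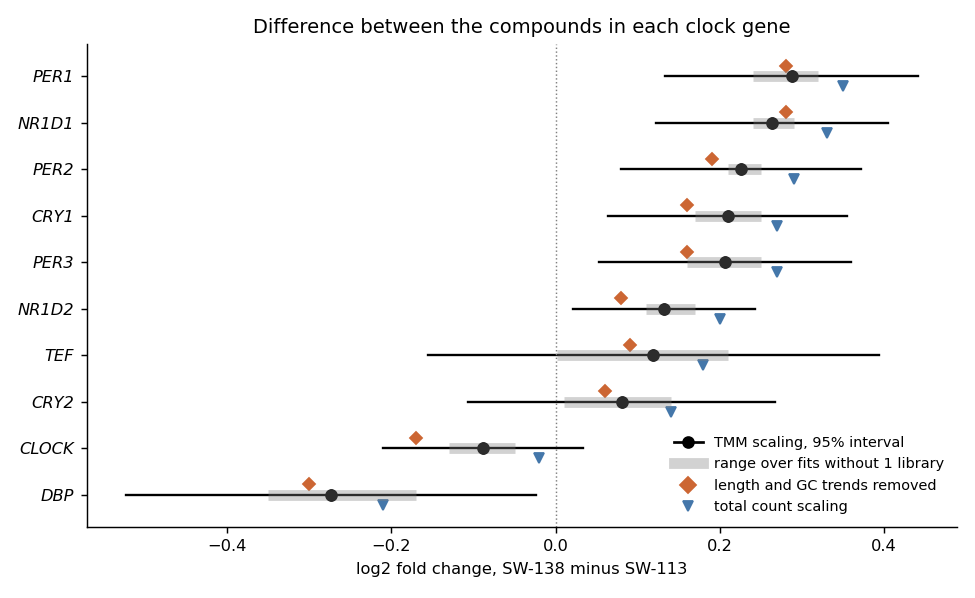
The horizontal axis gives the log2 fold change, SW-138 minus SW-113, of each clock gene: black points with 95% intervals use TMM scaling, grey bands span the 6 fits that each left out 1 library, diamonds have trends with transcript length and GC content removed, and triangles use scaling by total count alone. Every grey band stays on the side of 0 of its black point, with that of TEF reaching down to 0.0015.

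Differences between the compounds moved with transcript length over all tested genes. The longest annotated transcripts ran from 2772 bases in NR1D1 to 10304 bases in CLOCK. Split by that length into 10 bins of like size, the bin of PER2, PER3 and DBP (5613 to 7306 bases) had a median log2 fold change of 0.044. The bin of NR1D1 (2705 to 3268 bases) was at 0.001. DBP was placed by its longest transcript of 5756 bases, while its principal transcript has 2229. The bin of that shorter length (2229 to 2704 bases) was at -0.014. Removal of the trends also used the longest transcripts. With trends in length and GC content removed, PER1 was at 0.28, NR1D1 at 0.28, PER2 at 0.19 and PER3 and CRY1 at 0.16 each. NR1D2 was at 0.08, CLOCK at -0.17 and DBP at -0.30 in that fit. All 10 genes kept their sign, and PER1 and NR1D1 were again the ones called, both higher. Of 16905 tested genes 1201 (7.1%) were then called, 506 higher and 695 (4.11%) lower. How far length bears on the values of the clock genes beyond this fit was not tested.

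The makeup of the RNA also moved with the groups. RN7SL1, the RNA of the signal recognition particle, took 4.21%, 4.39% and 3.72% of the counts in the SW-113 libraries and 2.14%, 2.66% and 2.88% in the SW-138 libraries. Every SW-113 library was above every SW-138 library, and the part of this in the values below was not tested. Scaling by total count alone moved all 10 upwards, with CLOCK at -0.02 and DBP at -0.21. It called 5 of the 10, PER1, PER2, PER3, CRY1 and NR1D1, all higher, where 7.69% of all tested genes were called and 5.46% were called higher. A fit with the replicate number as a block called 3 of the 10, PER1, NR1D1 and CRY1, all higher, where 14% of all tested genes were called and 6.47% were called higher. The split of all calls was 40.4% higher with TMM factors and 71% higher with that scaling. Without SW-138 replicate 2, the library that stood apart, PER1 was at 0.32, PER2 at 0.25, NR1D1 at 0.25, PER3 and CRY1 at 0.18 each and DBP at -0.29.

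Some of the clock genes share exon bases with a gene on the other strand, and the strand setting of the counting was not given in the sources used here. NR1D1 overlaps the end of the thyroid hormone receptor gene THRA by 263 bases, 9.49% of the NR1D1 exon bases. THRA had means of 16.3 ± 0.961 and 14.7 ± 1.07 CPM (SD, n = 3) in SW-113 and SW-138. It stood at -0.14 ± 0.08 (SE) on the log2 fold change scale and did not pass (edgeR, Benjamini-Hochberg adjusted p = 0.324). DBP overlaps the sphingosine kinase gene SPHK2 by 661 bases, 10.1% of its exon bases, and SPHK2 was at -0.04 ± 0.08 (SE, edgeR, Benjamini-Hochberg adjusted p = 0.786). CLOCK overlaps TMEM165 by 76 bases, and PER3 overlaps UTS2 by 868 bases, which had a mean of 0.342 counts. In SW-113 replicate 1 the expected counts were 651.36 for NR1D1 and 667.64 for THRA, and 304.01 for DBP and 533.99 for SPHK2. Within both pairs the counts were fractional and added up to a whole number in every library. Counts do so where reads are divided between the genes of a pair. The part of reads from the other strand in the values of NR1D1 and DBP was not tested.

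Levels of different genes can be compared only per length, here as CPM per kilobase over the union of a gene's exons. NR1D2 was the highest of the 10, with a median of 29.2 CPM per kilobase over the 6 libraries (27.1 to 31.6). NR1D1 at 6.82 and CLOCK at 6.32 followed, with overlapping ranges, then CRY1 at 4.62 and PER1 at 3.61, which also overlapped. PER3 at 2.60, TEF at 2.27, PER2 at 2.26 and CRY2 at 2.00 each overlapped with the next in the order. DBP was the lowest at 1.09, apart from CRY2. The order below NR1D2 depended on the length used. The exon union of DBP, of 6544 bases, is far longer than its principal transcript of 2229 bases, and with principal transcripts DBP was at 3.19, between PER3 at 3.40 and CRY2 at 2.95. CLOCK at 7.22 and CRY1 at 7.16 then came before NR1D1 at 6.82, each overlapping the next, and PER1 followed at 5.37. TEF at 2.44 and PER2 at 2.43 were then the lowest, with overlapping ranges. NR1D2 was the highest by either length.

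**Figure D3:**
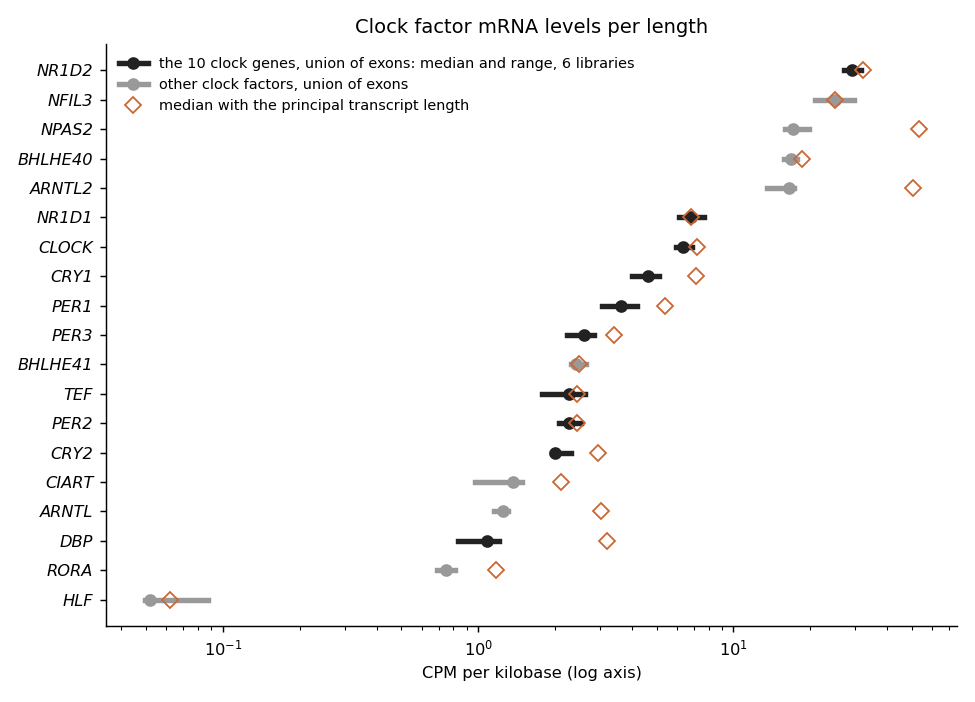
The horizontal log axis gives expression in CPM per kilobase for the 10 clock genes (black) and for other clock factors (grey), as the median and range over the 6 libraries with the union of exons, and as open diamonds with the principal transcript length. NR1D2 leads the 10 genes at 29.2, while NPAS2 at 17.1 and ARNTL2 at 16.6 lie above CLOCK at 6.32 and ARNTL at 1.25.

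Other clock factors in this line were set beside CLOCK on the same scale. NPAS2, the paralog that can replace CLOCK, was at a median of 17.1 CPM per kilobase (15.95 to 19.7), above the range of CLOCK (5.94 to 6.89). ARNTL2, the paralog of BMAL1, was at 16.6 CPM per kilobase (13.5 to 17.3), and ARNTL at 1.25 (1.16 to 1.31). The order within both pairs was the same with principal transcripts, at 53.2 for NPAS2, 7.22 for CLOCK, 50.5 for ARNTL2 and 3.03 for ARNTL. HLF, the third PAR-bZIP factor, was near 0 at 0.052 CPM per kilobase.

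The other genes of the pathway came from 10 lists with 81 genes, of which 77 were tested. Of these 7 passed, 4 higher and 3 lower, or 9.09% of the 77 beside 6.82% of all tested genes, and their median log2 fold change was 0.002. Among the 3 activators beside CLOCK, NPAS2 was higher and the other two did not pass. NPAS2 was at 200.5, 199.2 and 202.5 CPM with SW-113 and at 245.8, 230.9 and 223.7 CPM with SW-138, which is 0.22 ± 0.05 (SE) on the log2 fold change scale (edgeR with Benjamini-Hochberg, adjusted p = 0.0332). All SW-138 libraries were above the tight SW-113 group. The call was lost when SW-138 replicate 1 or any SW-113 replicate was left out, and with length and GC trends removed, at 0.17. That removal used its longest transcript of 7983 bases, while its principal transcript has 4007. ARNTL2 was at 0.19 ± 0.07 (SE) and ARNTL, the gene that NR1D proteins repress, at 0.06 ± 0.09, with an interval of -0.13 to 0.25.

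NFIL3, which binds the D-box and represses where DBP and TEF activate, had the clearest difference in the pathway. It was at 43.5, 45.9 and 46.7 CPM with SW-113 and at 61.7, 61.2 and 57.8 CPM with SW-138. The groups were far apart, at means of 45.4 ± 1.67 and 60.3 ± 2.11 CPM (SD, n = 3). Its log2 difference was 0.41 ± 0.05 (SE, by edgeR with Benjamini-Hochberg, adjusted p = 0.00308), and the call held in each of the 6 fits that left out a library and with the trends removed. HLF, the other gene of that list, was at 0.30 ± 0.34 (SE) and turned to -0.01 without SW-138 replicate 1.

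Among 5 other repressors of E-box transcription 0 passed by edgeR, DESeq2 or limma-voom, and 1 had an unadjusted edgeR p under 0.05. BHLHE40 (DEC1) was at 67.2, 65.7 and 68.2 CPM with SW-113 and at 60.8, 60.4 and 63.5 CPM with SW-138. Its libraries did not overlap, with SW-138 lower, and its log2 fold change of -0.12 ± 0.05 (SE) did not pass (edgeR, Benjamini-Hochberg adjusted p = 0.167). BHLHE41 was at -0.07 ± 0.08 (SE) and CIART, which binds BMAL1, at 0.23 ± 0.16, and neither passed. Of the 3 ROR genes, which activate through the elements that NR1D proteins occupy, 0 passed by edgeR, DESeq2 or limma-voom, and 0 had an unadjusted edgeR p under 0.05. RORA was at -0.08 ± 0.08 (SE).

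Of 13 kinases and phosphatases of PER and CRY, 1 was lower, CSNK2B, the regulatory subunit of casein kinase 2, and 12 did not pass by edgeR. DESeq2 called 3 genes of this list and limma-voom 1. CSNK2B was at -0.23 ± 0.06 (SE, edgeR, Benjamini-Hochberg adjusted p = 0.0396), a call lost when SW-138 replicate 1 or 3 or SW-113 replicate 2 or 3 was left out. It was also lost with the trends removed, at -0.18, and with scaling by total count alone, at -0.16. The casein kinase 1 genes CSNK1D and CSNK1E, whose products mark PER for degradation, were at 0.05 ± 0.06 and 0.01 ± 0.05 (SE), with intervals of -0.08 to 0.17 and -0.09 to 0.11. Of 9 tested genes for ubiquitin ligases and a deubiquitinase of clock proteins 0 passed by edgeR, DESeq2 or limma-voom, and 2 had an unadjusted edgeR p under 0.05.

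Of 6 NR1D corepressor genes, GPS2 was lower at -0.29 ± 0.05 (SE), with an adjusted p of 0.0124 (edgeR, Benjamini-Hochberg), and 5 did not pass. That call needed SW-113 replicates 2 and 3. HDAC3, the deacetylase that NR1D proteins bring to their targets, was at -0.07 ± 0.06 (SE), with an interval of -0.19 to 0.06. Of 13 coactivator, chromatin and PER complex genes 0 passed by edgeR, DESeq2 or limma-voom and 0 had an unadjusted edgeR p under 0.05. Of 10 genes for signal inputs to PER transcription 0 passed by the same 3 tools, and 1 had an unadjusted edgeR p under 0.05.

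Of 13 tested clock-controlled output genes 10 did not pass, and KLF9, which was higher, and LITAF, which was lower, were among those that did. KLF9, a Krüppel-like repressor gene induced by glucocorticoids, was at 178.3, 192.8 and 174.2 CPM with SW-113 and at 229.4, 222.0 and 212.6 CPM with SW-138, with no overlap. KLF9 had a log2 difference of 0.28 ± 0.05 (SE, by edgeR with Benjamini-Hochberg, adjusted p = 0.0163), and the call was lost when SW-138 replicate 1 or SW-113 replicate 1 or 3 was left out. LITAF was lower at -0.22 ± 0.05 (SE, edgeR, Benjamini-Hochberg adjusted p = 0.0403), and of the 6 fits that left out a library only the one without SW-138 replicate 2 kept the call. LITAF also did not pass with upper quartile scaling, at -0.21, or with scaling by total count alone, at -0.15. These genes respond to many signals besides the clock.

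**Figure D4:**
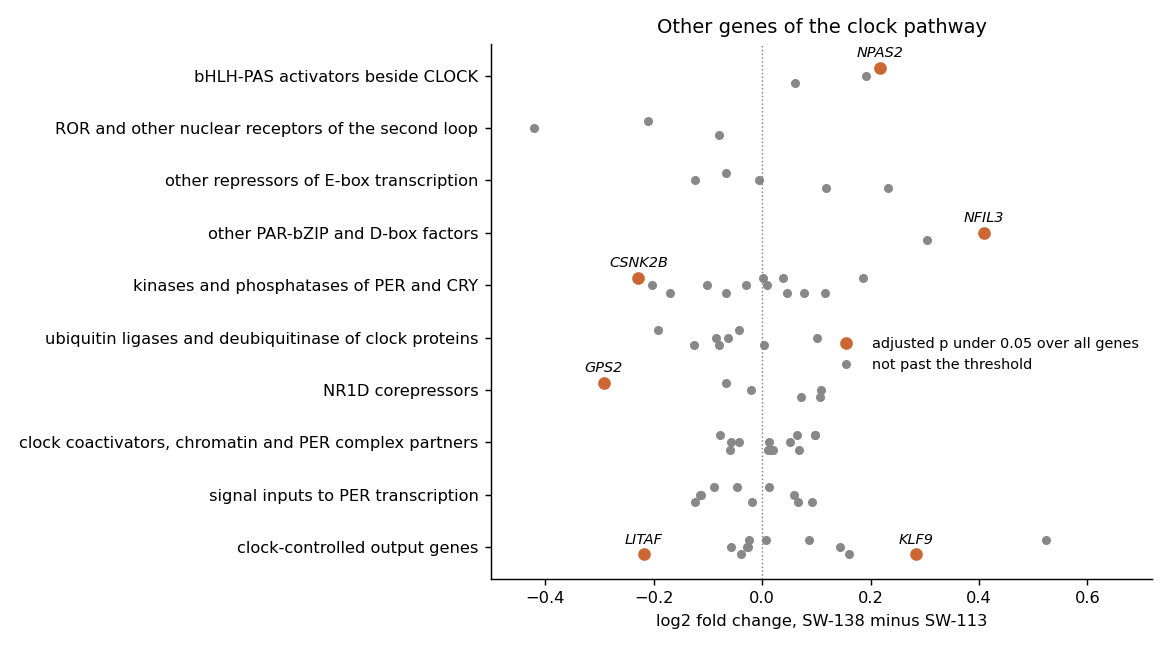
Each row is 1 list of clock pathway genes beside the 10 described above, each point a tested gene, and the horizontal axis its log2 fold change, SW-138 minus SW-113. Orange points passed an adjusted p of 0.05 over all genes: NPAS2, NFIL3 and KLF9 to the right of 0, and CSNK2B, GPS2 and LITAF to the left, while the grey points did not pass. Not every tested gene of the lists is drawn.

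Of the genes with an E-box or D-box in their windows, PER1, PER2, PER3 and NR1D2 had SW-138 libraries apart and higher, and TEF overlapped. Of the genes with neither, CRY1 and NR1D1 were apart and higher, DBP was apart and lower, and CRY2 and CLOCK overlapped. These are the values side by side, and whether the letters go with a difference was not tested.

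The libraries of 1 compound differed little in most of the 10 genes. In log2 CPM, the largest deviations from a group mean were -0.257 in TEF in SW-113 replicate 3 and -0.2 in DBP in SW-138 replicate 1. PER2 was the tightest, with deviations from -0.045 to 0.03. SW-138 replicate 2 was the lowest of its group in PER1 (-0.08), PER2 (-0.045) and TEF (-0.133), and the highest in PER3 (0.047), CRY1 (0.055), NR1D1 (0.03) and NR1D2 (0.042).

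The genes whose pattern over the 6 libraries was most like that of the 3 clock genes with the largest differences were sought among 13601 named genes with a mean of at least 1 CPM. Likeness was the root mean square difference in log2 CPM, each gene centred on its own mean. Nearest to PER1 were ST7L (0.028), DNAJC1 (0.036) and SH3BP4 (0.039). The 2 nearest to NR1D1 were STK39 (0.017) and NEDD4L (0.020). Nearest to DBP were TEN1 (0.026), SNRNP25 (0.027) and NDUFA1 (0.031). None of these 8 is in the clock lists. By Pearson correlation in place of distance, 2 of 3 were the same for PER1, 2 of 3 for DBP and 0 of 3 for NR1D1.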

How the data were processed

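RNA depleted of ribosomal RNA was sequenced in 6 libraries, per the labels' protocols. The deposited values, in a single table, are expected counts per gene and library as estimated by the authors, and between 10.6% and 11.6% of a library's values are fractional. Tools named in the submitters' processing notes are RSEM 1.3.3, Trimmomatic 0.39, DESeq2 1.42.0 and Bowtie2 2.5.4, with the build GRCh38 and no order of use. Which annotation, filters and strand were used is not given in the sources used here. Replicates are not labelled as separate cultures: the p-values reflect the spread among these samples, possibly a technical one. No 2 libraries of a group agreed within sampling noise.

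Expected counts were rounded and genes kept by edgeR's filterByExpr. Compounds were compared with edgeR 4.0.16 (R 4.3.3) by the quasi-likelihood test, with TMM factors and p-values adjusted by Benjamini-Hochberg over 16905 genes. Standard errors, and the widths of the 95% intervals around edgeR's log2 fold changes, are those of limma-voom (limma version 3.58.1). CPM used TMM-scaled totals, except for the cell type markers, where plain library totals were used. Likeness used a pseudocount of 0.5 counts. Lengths, GC content (of the longest transcript) and coordinates came from GENCODE release 29 (GRCh38), and promoters from RefSeq. A planned comparison of protein sequences was not run.

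The 10 genes, the lists and the tests were chosen with earlier results of these data known. Always named were the 10 genes, THRA and a fixed set of other clock genes, and besides them list genes past the threshold (at most 4 a list by smallest p) and the 3 genes most like each of the 3 clock genes of largest difference. A few genes that this rule names are not reported here. SPHK2, TMEM165, UTS2 and RN7SL1 were added after their values were seen. The fits were tested on simulated data. Alternatives were other scalings and filters, DESeq2, limma-voom, a replicate block, offsets for length and GC content, leaving out each library, another pseudocount, correlation and, chosen after seeing the data, principal transcript lengths.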

Additional observations from a re-analysis of the deposited data

How the results depend on the processing

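The 10 clock genes kept their direction in all 150 refits (15 alternatives for each gene). The number of the 10 past the threshold was 2, against 5 with scaling by total count alone. It was 3 when only genes with a mean of 5 CPM were kept, with PER2 beside PER1 and NR1D1. In that fit 1257 of 10898 tested genes were called. When a library was left out the number was 0 to 1, in fits with fewer samples. Over all genes, 1153 differed. Keeping genes at 1 count in 1 library gave 2060, and the replicate block gave 2363. Leaving out a library gave 303 to 1616, from 303 without SW-113 replicate 3 to 1616 without SW-138 replicate 2. Of the other pathway genes 7 passed, 11 did with the replicate block, and 1 to 8 did when a library was left out. The cause was not tested for the changes under the block and the scaling. Whether replicate numbers pair the samples is not given by the labels and was not settled here. Same-numbered libraries correlated in their deviations from the group means at 0.0492, 0.206 and 0.0512. Libraries with different numbers were at -0.142 to 0.0903, and 2 of the 6 libraries correlated best with their own number. The block called 3 of the 10 clock genes, CRY1 beside PER1 and NR1D1. Directions turned in 3 genes that had not passed. SPHK2 was at 0.02 with scaling by total count alone. HLF ran from -0.01 (without SW-138 replicate 1) to 0.46 with single libraries left out, and CSNK1E from -0.01 to 0.03, below 0 without SW-113 replicates 1 and 3 (-0.0035 and -0.0026) and SW-138 replicate 3. Depth was lowest among the 10 clock genes in DBP, with 218 to 359 counts in a library.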
